A study of Homo sapiens with 6 samples.

Results

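Toll-like receptors sense microbial molecules at the cell surface or in endosomes, and TLR1, TLR4, TLR6, TLR7 and TLR9 pass the signal on through the adaptor MYD88. The ligands of TLR10, their neighbour in sequence, are less settled. MYD88 binds the kinase IRAK4, IRAK4 activates IRAK1, and IRAK1 hands the signal to the ubiquitin ligase TRAF6, which leads to NF-kB and to cytokine genes. B cells carry several of these receptors, and in B-lineage malignancies the MYD88 pathway is known as a survival signal. The genes examined were MYD88, IRAK1, IRAK4, TRAF6, TLR1, TLR4, TLR6, TLR7, TLR9 and TLR10, chosen by name. Their 10 symbols cover 12 of the 63677 Ensembl gene IDs in the tables, since IRAK1 and TLR9 each have 2 IDs, and 85 of 215170 transcripts.

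The 6 libraries were total RNA, depleted of ribosomal RNA, from KMS27, an established human line of malignant plasma cells. Per the labels, 3 libraries (HA-TAZ 1 to 3) came from KMS27 cells with overexpression of HA-TAZ, the HA-tagged coactivator TAZ encoded by WWTR1, and 3 from wild type KMS27 cells (control a to c). The control columns carry a name found in no label and were taken as wild type by elimination. The titles of the wild type samples also carry HA, and whether those cells held a construct is not stated. Promoter, dose, time and number of clones are not stated either. The labels call the libraries triplicates and name no separate cultures, so p-values measure the spread between these libraries, which may be technical.

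The authors' values are TPM, transcript abundances corrected for length and stated as a share of each library, which carry no depth. Summed over transcripts, the means of the authors' deposited table came to 52795484 estimated counts per library. WWTR1 was at 293 to 306 TPM under HA-TAZ and 1.69 to 2.69 TPM in the controls. TPM was divided by a scaling factor per library, from 0.866 to 0.967 under HA-TAZ and from 1.06 to 1.21 in the controls. Without this step the median log2 difference over all tested genes was −0.27, and with it −0.03, so a direction that depends on it is named below. All 9 plasma cell markers had a mean of at least 1 TPM. Their summed level was 2785 to 3217 TPM under HA-TAZ and 4269.7 to 4825 TPM in the controls, most of it JCHAIN. The sum does not stand for every marker. SLAMF7 was higher without overlap, at 6.55 to 7.78 TPM under HA-TAZ and 3.495 to 4.51 TPM in the controls. SDC1 overlapped, at 89.7 to 94.95 TPM under HA-TAZ and 79.8 to 93.1 TPM in the controls. Each of the other plasma cell markers was lower in every HA-TAZ library than in any control. Of the markers of other cell types, 5 of 6 for B cells, 3 of 6 for monocytes or macrophages, 4 of 4 for dendritic cells, 4 of 5 for T or NK cells and 2 of 4 for stromal or endothelial cells stayed under 1 TPM in every library. The exceptions included CD163 at 8.70 to 25.1 TPM and CR2 at 8.27 to 9.78 TPM, while CD14 reached 0.295 TPM, LYZ 0.206 TPM, and CD1C was at 0. The monocyte or macrophage markers summed to 11.5 to 15.5 TPM under HA-TAZ and 17.6 to 27.8 TPM in the controls, most of it CD163. ITGAM leaned the other way, at 0.803, 1.63 and 1.20 TPM under HA-TAZ and 0.478, 0.626 and 0.808 TPM in the controls, with overlap. All marker levels are TPM as deposited, and they were not compared after scaling. The part of these differences in the results below was not tested.

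Of the genes themselves, 3 alternative coding stretches matter for reading the values, because they tell apart the transcripts described below. They are printed from GENCODE release 29 (GRCh38), 5′ to 3′ in the sense of the transcript, with the alternative stretch in capitals and 10 flanking bases of the transcript on each side in lower case. IRAK1 exon 11 of 14 (chrX:154014042-154014278, minus strand, 237 bases, 79 codons, coding) is present in IRAK1-203 and absent from IRAK1-202, a form known as IRAK1c. The 90 bases at the start of IRAK1 exon 12 (chrX:154013344-154013433, minus strand, 30 codons, coding) are present in IRAK1-203 and absent from IRAK1-204, known as IRAK1b. MYD88 exon 2 of 5 (chr3:38139864-38139998, plus strand, 135 bases, 45 codons, coding) is present in MYD88-201 and absent from MYD88-203, the short form known as MYD88s, which recruits IRAK4 poorly.
IRAK1 exon 11: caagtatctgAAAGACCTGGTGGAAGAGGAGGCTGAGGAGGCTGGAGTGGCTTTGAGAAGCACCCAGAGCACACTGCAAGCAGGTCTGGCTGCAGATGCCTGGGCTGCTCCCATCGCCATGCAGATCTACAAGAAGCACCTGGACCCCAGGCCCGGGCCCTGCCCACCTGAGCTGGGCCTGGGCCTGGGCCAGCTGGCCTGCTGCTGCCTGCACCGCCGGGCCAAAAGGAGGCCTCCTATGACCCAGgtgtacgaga
IRAK1 start of exon 12: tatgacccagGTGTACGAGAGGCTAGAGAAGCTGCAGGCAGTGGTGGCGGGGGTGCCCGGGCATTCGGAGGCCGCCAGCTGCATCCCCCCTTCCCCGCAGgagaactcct
MYD88 exon 2: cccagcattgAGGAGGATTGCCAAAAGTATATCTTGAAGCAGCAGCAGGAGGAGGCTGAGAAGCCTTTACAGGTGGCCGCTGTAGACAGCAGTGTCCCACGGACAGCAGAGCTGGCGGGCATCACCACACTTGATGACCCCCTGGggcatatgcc

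The signalling core was present at very unequal levels, and the receptors were low. IRAK1 was the most abundant, at 64.8 TPM per gene ID over the 6 libraries. Its 2 IDs hold the same 6 values, as identical copies of a gene do when reads are split between them, so the gene's own level is the sum of both, 127 to 133 TPM. IRAK4 followed at 11.7 TPM and TRAF6 at 10.6 TPM, and their ranges overlapped. MYD88 was at 4.31 TPM, TLR6 at 4.13 TPM and TLR1 at 3.84 TPM, and each of these overlapped its neighbour. The order of MYD88 and TLR6 differed by group: MYD88 was above TLR6 in all 3 HA-TAZ libraries and below it in all 3 controls. TLR4 at 1.62 TPM and TLR7 at 1.10 TPM also overlapped each other. TLR10 at 0.207 TPM and TLR9 at 0.157 TPM stayed under 1 TPM in every library. Gaps with no overlap over the 6 libraries lay between IRAK1 and IRAK4, TRAF6 and MYD88, TLR1 and TLR4, and TLR7 and TLR10.

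No member gene was called different between HA-TAZ and control libraries. Of the 10 genes, 8 passed the filter of a mean of at least 1 TPM, and 0 of these 8 had an adjusted p under 0.05 (limma on log2(scaled TPM + 1), adjusted over 22651 genes by the Benjamini-Hochberg method). Over all tested genes 1652 were called, 7.29%. At an unadjusted p under 0.05 there were 2 of the 8 members, IRAK1 and MYD88, against 6959 of all 22651 tested genes. Such p-values were thus common in these data, and 2 of 8 does not stand out. The groups did not overlap in scaled TPM for 3 of the 8, IRAK1, MYD88 and TLR7, all higher in HA-TAZ libraries. Over all tested genes the groups did not overlap for 38.5%, 20.2% being higher under HA-TAZ, so 3 of 8 is near the background for either direction and above that for higher genes alone, with no test. In TPM as deposited 3 other members did not overlap, IRAK4, TLR4 and TLR6, all lower in HA-TAZ libraries, against 48.0% of all tested genes, 43.6% being lower. Which members stood apart, and in which direction, thus changed with the scaling. The median log2 fold change of the 8 was 0.06, and −0.19 with TPM as deposited. In these bulk libraries fewer cells with a transcript and less of it per cell cannot be told apart.

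**Figure D1:**
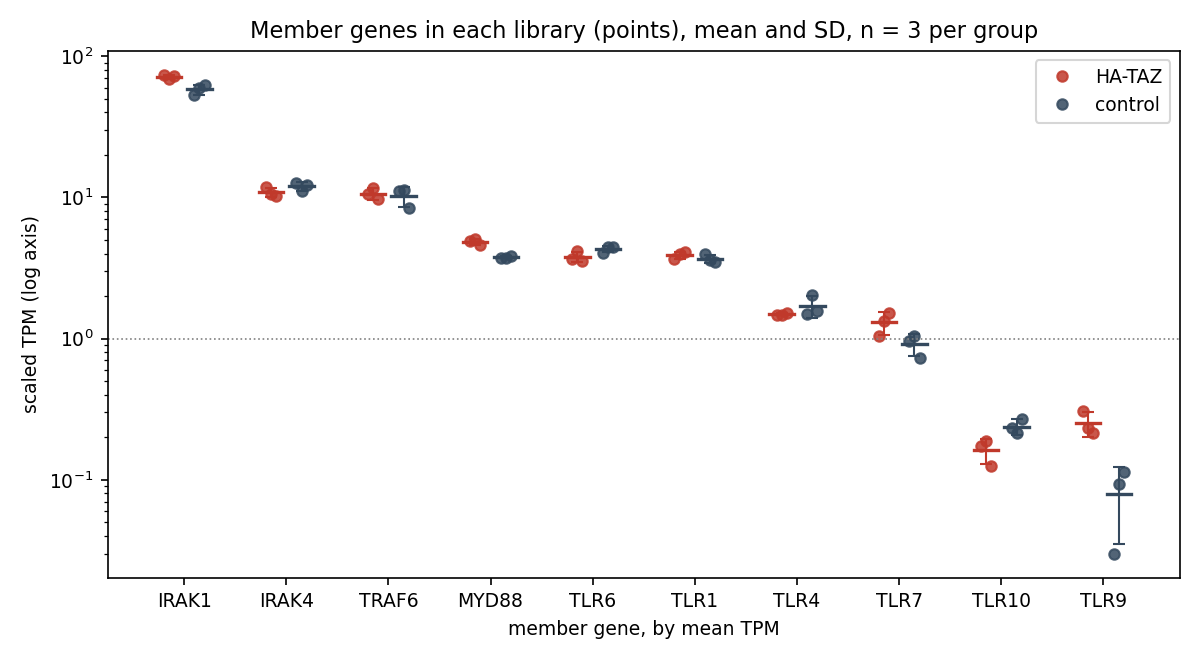
Scaled TPM of the 10 genes (log axis) in each of the 6 libraries, ordered by mean TPM, with HA-TAZ libraries in red and control libraries in dark blue; horizontal lines are means, bars are SD (n = 3), and the dotted line marks 1 TPM. IRAK1 stands far above the rest, the ranges of MYD88, TLR6 and TLR1 overlap, and TLR10 and TLR9 lie under 1.

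MYD88 (ENSG00000172936), the adaptor that joins receptors to the kinases, was at 4.87, 5.06 and 4.59 scaled TPM in HA-TAZ 1, 2 and 3. Control a, b and c were at 3.73, 3.72 and 3.86 scaled TPM. All 3 HA-TAZ libraries lay above all 3 controls, with means of 4.84 ± 0.235 and 3.77 ± 0.0788 (SD, n = 3 each). The log2 fold change was 0.29 (standard error 0.08), with a 95% interval from 0.10 to 0.48, and it was not called (limma, adjusted p = 0.0706). In TPM as deposited the groups overlapped, at 4.22, 4.89 and 4.09 against 4.51, 4.06 and 4.09, and the log2 fold change was 0.05. The difference in MYD88 thus depends on the scaling of the libraries. About 610 estimated counts stand behind it in the authors' deposited table, a counting error of 4.05%. None of its 31-base words occurs in another gene of GENCODE release 29, so its reads are not shared with a copy there.

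Most of the MYD88 signal came from forms that keep exon 2. The main transcript, MYD88-201 (ENST00000396334.3), was at 1.93, 2.08 and 3.06 TPM under HA-TAZ and 1.39, 2.29 and 1.32 TPM in the controls. Its share of the gene ranged from 42.4% to 74.9% under HA-TAZ and from 30.8% to 56.5% in the controls, with overlap (exact two-sided permutation p = 0.4). MYD88-204 (ENST00000421516.1), which also keeps exon 2, was at 1.10 ± 0.766 TPM and 1.45 ± 0.781 TPM (SD, n = 3 each). The forms without it that are annotated as coding and present in the tables are MYD88-203, MYD88-205 and MYD88-211. The first 2, MYD88-203 and MYD88-205, were listed at 0 in all 6 libraries, and MYD88-211 reached at most 0.114 TPM. MYD88-202, a form with a retained intron that also lacks the exon, ranged from 0 to 0.849 TPM. In these files an exact 0 can be a failed estimate, so such forms are given as listed at 0, not as absent.

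IRAK1 (ENSG00000184216, and its copy ENSG00000268944), the kinase that carries the signal to TRAF6, was at 73.4, 68.8 and 72.4 scaled TPM in HA-TAZ libraries. The controls were at 52.9, 59.6 and 62.1 scaled TPM, and the groups did not overlap. Over both copies the level was 143 ± 4.87 scaled TPM under HA-TAZ and 116 ± 9.55 in the controls (SD, n = 3 each). The log2 fold change was 0.30 (standard error 0.07), with a 95% interval from 0.12 to 0.47, just outside the threshold (limma, adjusted p = 0.0592). With only genes of at least 5 TPM tested, IRAK1 was called (limma, adjusted p = 0.0406). With scaling factors over all genes above 0 it was also called (limma, adjusted p = 0.0485). With TPM as deposited the difference vanished, at 63.5, 66.5 and 64.5 against 63.9, 64.97 and 65.7, a log2 fold change of −0.00051.

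Within IRAK1, some forms had a larger log2 fold change in size than the gene, mainly IRAK1-203 and IRAK1-208, and ENST00000393682.1 at 0.37. Others had a smaller one: IRAK1-202 at 0.12, IRAK1-204 at 0.27, IRAK1-211 at −0.05 and IRAK1-212 at 0.16. None of these forms was called (limma, adjusted p under 0.05). The share of all tested transcripts without overlap between the groups was not counted. IRAK1-203 (ENST00000369980.3), the full-length coding form, was at 24.5, 23.3 and 28.99 TPM per copy under HA-TAZ. The controls read 14.6, 17.2 and 18.9 TPM. It was higher in every HA-TAZ library than in any control, also in TPM as deposited. Its log2 fold change was 0.86 (standard error 0.17) and was not called over the transcripts (limma, adjusted p = 0.0807). The authors' deposited table gave IRAK1-203 an effect (natural log) of 0.645 and q = 0.000240. IRAK1-208 (ENST00000444230.1), a model of 1125 bases that lacks both exon 11 and the start of exon 12, went the other way. It was at 3.70, 5.84 and 2.07 TPM under HA-TAZ and at 17.6, 11.03 and 7.73 TPM in the controls. This was not called either (limma, log2 fold change −1.18, adjusted p = 0.120; q = 0.0893 in the authors' deposited table).

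As a share of IRAK1, IRAK1-203 took 38.6%, 35.1% and 44.97% in HA-TAZ libraries and 22.8%, 26.5% and 28.7% in controls. The means were 39.6% ± 5.01 and 26.02% ± 3.00 (SD, n = 3 each). There was no overlap (exact two-sided permutation p = 0.1, the smallest that 3 against 3 libraries allow). Adjusted over the 10 genes, no main-transcript share reached the threshold (smallest adjusted p = 1.0). IRAK1-202 (ENST00000369974.2), the form without exon 11, was at 14.3 ± 0.529 TPM under HA-TAZ and 16.2 ± 1.79 TPM in the controls (SD, n = 3 each), with overlap. Set against IRAK1-202 alone, a comparison chosen after the values were seen, IRAK1-203 took 62.4%, 61.9% and 67.8% of the pair in HA-TAZ libraries. In controls it took 50.7%, 49.6% and 52.7%, again without overlap. Of the 7 models with exon 11, 3 lack the start of exon 12, IRAK1-204, IRAK1-205 and IRAK1-210. Together they took 9.33% ± 2.06 of the 7 under HA-TAZ and 8.83% ± 3.83 in the controls (SD, n = 3 each), with overlap. ENST00000393682.1 has no model in GENCODE release 29 and was left out of the pair and of the 7 models. It is part of the gene total behind the shares of IRAK1. It took 18.0% of IRAK1 under HA-TAZ and 16.8% in the controls.

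**Figure D2:**
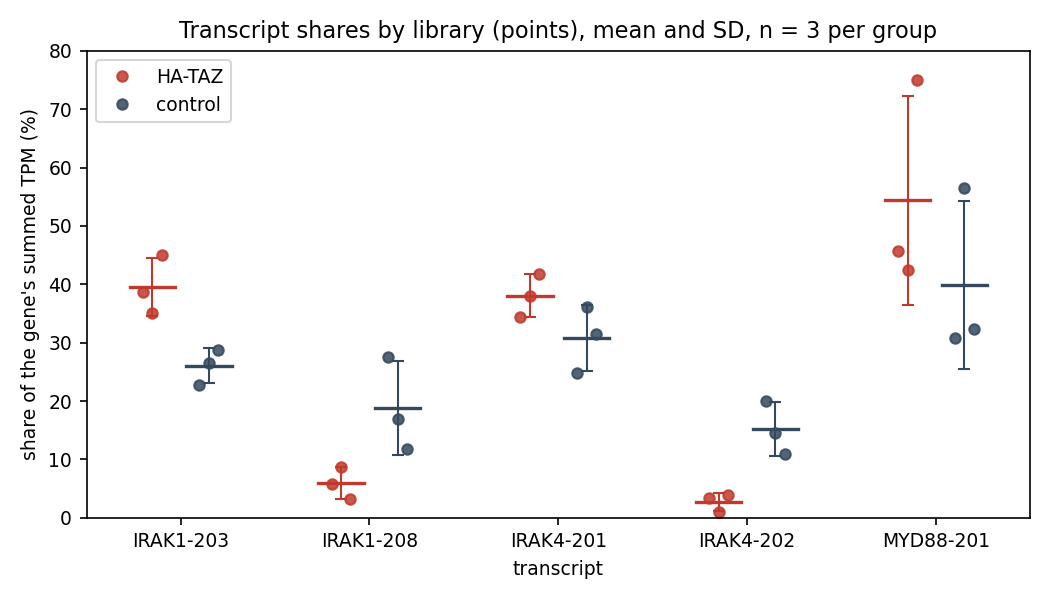
Share of a gene's summed TPM (percent) taken by 5 transcripts of IRAK1, IRAK4 and MYD88 in each library, HA-TAZ in red and control in dark blue; lines are means and bars SD (n = 3). IRAK1-203 is higher and IRAK1-208 and IRAK4-202 are lower in all HA-TAZ libraries, while IRAK4-201 and MYD88-201 overlap.

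IRAK4 (ENSG00000198001), the kinase that MYD88 recruits, was at 11.8, 10.6 and 10.3 scaled TPM under HA-TAZ and 12.7, 11.1 and 12.3 in the controls, with overlap. The log2 fold change was −0.13 with a 95% interval from −0.33 to 0.07 (limma, adjusted p = 0.337). In TPM as deposited the HA-TAZ libraries lay below all controls, with a log2 fold change of −0.41 (limma, adjusted p = 0.0537). A short form of IRAK4 did not overlap between the groups. Over all tested genes lack of overlap was common, at 38.5% in scaled TPM and 48.0% in TPM as deposited. Those shares are for genes, and the share over all tested transcripts was not counted. IRAK4-202 (ENST00000440781.2), a model of 1409 bases against the 4147 of IRAK4-201 with a coding part of the same length, was at 0.343, 0.0960 and 0.352 TPM under HA-TAZ and 3.07, 1.76 and 1.41 TPM in the controls. Its share of IRAK4 was 2.71% ± 1.56 and 15.2% ± 4.62 (SD, n = 3 each), without overlap (exact permutation p = 0.1). The change in level was not called (limma, log2 fold change −1.11, adjusted p = 0.0753), and the authors' deposited table gave it q = 0.347 at about 54.7 estimated counts. IRAK4-201 (ENST00000431837.1), the form with the highest mean TPM, took 38.1% ± 3.71 and 30.8% ± 5.63 (SD, n = 3 each), with overlap. The coding part of IRAK4-201 and IRAK4-202 is 1008 bases, shorter than the 1380 of IRAK4-212 (ENST00000551736.1). IRAK4-212 was at 0.364 ± 0.436 TPM under HA-TAZ and 0.0310 ± 0.0538 TPM in the controls (SD, n = 3 each).

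TRAF6 (ENSG00000175104), the ubiquitin ligase at the end of the shared route, was at 10.5, 11.7 and 9.68 scaled TPM under HA-TAZ and 11.03, 11.2 and 8.35 in the controls. The groups overlapped, and the 95% interval of the log2 fold change ran from −0.26 to 0.38 around 0.06 (limma, adjusted p = 0.772). Its direction was not stable. It was −0.21 with TPM as deposited, −0.0056 with scaling on protein-coding genes and −0.062 without control c. TRAF6 shares 8.14% of its 31-base words with the pseudogene TRAF6P1, so part of its reads could be assigned to either.

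Among the receptors, TLR1 and TLR6 pair with TLR2 at the cell surface to recognise lipoproteins. TLR6 (ENSG00000174130) was at 3.67, 4.14 and 3.54 scaled TPM under HA-TAZ and 4.04, 4.46 and 4.44 in the controls. A single HA-TAZ library, HA-TAZ 2, reached into the control range, and the log2 fold change was −0.15 with a 95% interval from −0.37 to 0.07 (limma, adjusted p = 0.299). In TPM as deposited TLR6 did not overlap, at 3.18, 4.002 and 3.15 against 4.89, 4.86 and 4.69, a log2 fold change of −0.39 that was not called either (limma, adjusted p = 0.0597). TLR1 (ENSG00000174125) was at 3.65, 3.96 and 4.08 against 3.96, 3.60 and 3.51 scaled TPM, with overlap. Its log2 fold change was 0.06, with a 95% interval from −0.15 to 0.28 (limma, adjusted p = 0.652), and it turned to −0.18 with TPM as deposited. TLR1 and TLR6 lie on chromosome 4, at 38790677-38856817 and 38823715-38856817 on the minus strand of GRCh38. They share 418 of their 31-base words, 9.06% of TLR1 and 6.90% of TLR6, so their reads cannot always be told apart. TLR2, their partner, was at 0.323 ± 0.0337 and 0.270 ± 0.0554 scaled TPM (SD, n = 3 each), below the filter.

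TLR4 (ENSG00000136869), the receptor of bacterial lipopolysaccharide, was at 1.47, 1.47 and 1.51 scaled TPM under HA-TAZ and 1.497, 2.04 and 1.56 in the controls. Control b stood above the other libraries, the groups overlapped, and the log2 fold change of −0.11 had a 95% interval from −0.40 to 0.17 (limma, adjusted p = 0.539). In TPM as deposited the HA-TAZ libraries lay below all controls, at 1.27, 1.42 and 1.35 against 1.81, 2.22 and 1.65, a log2 fold change of −0.30 that was not called (limma, adjusted p = 0.126). LY96 (MD-2), which binds lipopolysaccharide together with TLR4, overlapped at 6.41 ± 0.907 and 4.90 ± 1.51 scaled TPM (SD, n = 3 each). CD14, which delivers the ligand, stayed below the filter, with 0.204 ± 0.131 scaled TPM under HA-TAZ and 0.170 ± 0.0339 in the controls (SD, n = 3 each).

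The endosomal receptors TLR7, for single-stranded RNA, and TLR9, for unmethylated CpG DNA, were near or below the filter. TLR7 (ENSG00000196664) was at 1.05, 1.33 and 1.53 scaled TPM under HA-TAZ and 0.956, 1.04 and 0.732 in the controls. The groups did not overlap, though HA-TAZ 1 and control b were close. The log2 fold change was 0.27, with a 95% interval from −0.06 to 0.59 (limma, adjusted p = 0.231), and the pseudocount of 1 understates changes at this level. In TPM as deposited the groups overlapped, with a log2 fold change of 0.11. The authors' deposited table, which tests transcripts, gave TLR7-201 (ENST00000380659.3) an effect (natural log) of 0.383 and q = 0.0144.

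TLR9 was low and split over 2 gene IDs. ENSG00000239732 was at 0.267, 0.224 and 0.191 TPM under HA-TAZ and 0.0361, 0.102 and 0.121 TPM in the controls. In HA-TAZ 3, 0.131 TPM of this came from ENST00000597542.1, which has no model in GENCODE release 29. That transcript was listed at 0 in the other libraries. TLR9-201 (ENST00000360658.2) was at 0.0598 TPM in HA-TAZ 3, below controls b and c. ENSG00000173366, named AC097637.1 in GENCODE release 29, overlaps ENSG00000239732 on the same strand and shares 85.5% of the 31-base words of TLR9. It was at 0, 0 and 0.0361 TPM against 0.325, 0.159 and 0.171 TPM, the opposite order. The sum of both was 0.240 ± 0.0240 TPM under HA-TAZ and 0.305 ± 0.0514 TPM in the controls (SD, n = 3 each), with overlap in TPM as deposited and after scaling (exact permutation p = 0.9 on scaled TPM). The q of 0.0245 that the authors' deposited table gives for ENST00000494383.1, labelled TLR9 there, belongs to the second ID and rests on about 7.4 estimated counts. For ENSG00000239732 it was about 27.2, a counting error of 19.2%.

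TLR10 (ENSG00000174123), the neighbour of TLR1 and TLR6 on chromosome 4, was at 0.173, 0.189 and 0.126 scaled TPM under HA-TAZ and 0.232, 0.213 and 0.271 in the controls. The groups did not overlap, at about 35.8 estimated counts and a counting error of 16.7%. Its exact two-sided permutation p was 0.1, the smallest possible. It was not among the tested genes.

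**Figure D3:**
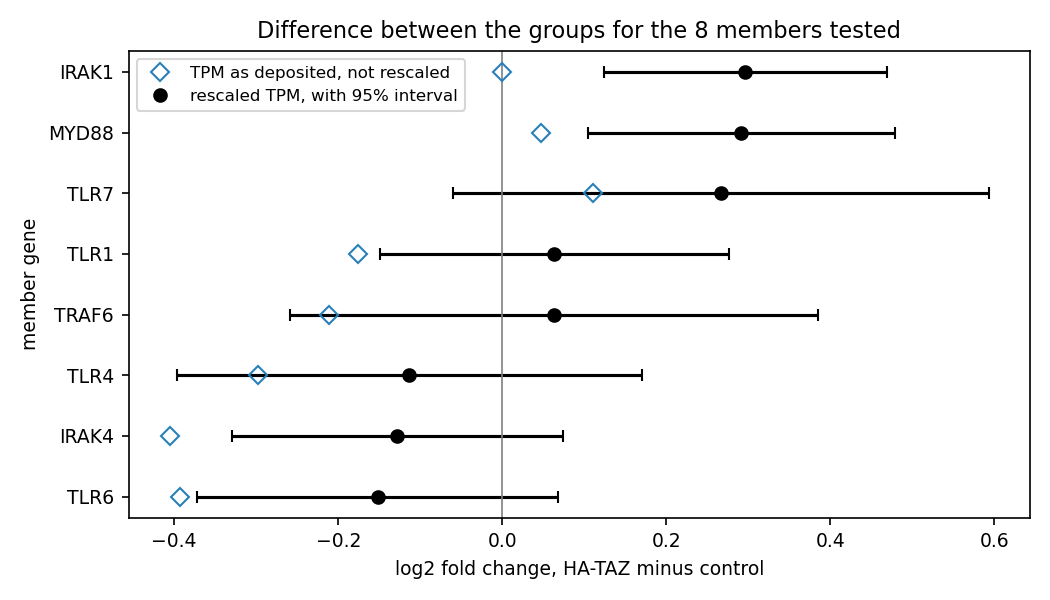
Log2 fold change (HA-TAZ minus control) of the 8 tested genes, as points with 95% intervals from limma on rescaled TPM; diamonds give the value from TPM as deposited. The intervals of IRAK1 and MYD88 lie above 0 before adjustment over all genes, and every diamond lies to the left of its point.

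Among the transcripts of these genes, counted over 1 ID per symbol, 69 are in the tables and 21 passed the filter of 1 TPM. None of the 21 was called (limma, adjusted p under 0.05), and 6 had an unadjusted p under 0.05. The share of all tested transcripts at that unadjusted level was not counted. Over all 57448 tested transcripts 307 were called, 0.534%. Statistics are given in the authors' deposited table for 44 of the 69. A q under 0.05 was given to 3 of them: IRAK1-203, ENST00000393682.1 of IRAK1 at q = 0.04995, and TLR7-201. Over all 109487 transcripts of the authors' deposited table the share was 5.68%.

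The genes around these 10 were examined as 9 lists with 80 genes, of which 51 passed the filter. In all 13 were called higher and 0 lower (limma, adjusted p under 0.05), against 4.67% higher and 2.63% lower over all tested genes. With TPM as deposited 6 were called higher and 2 lower, LGMN and UNC93B1. Over all tested genes the split was 1057 higher and 595 lower, against 261 and 3068 with TPM as deposited and 660 and 859 with scaling on protein-coding genes. Without HA-TAZ 1 the count was 6, and it was 7 without HA-TAZ 2, HA-TAZ 3 or control b. Of the 13, 10 lay in the lists of the NF-kB end, the brakes and the target cytokines. The lists were chosen with earlier results of these data known, so these counts are a description.

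Close to the receptors few genes passed the filter and 1 was called, which does not stand out from the 7.29% called over all tested genes. Of the other receptors, TLR5 alone passed the filter, at 1.74 ± 0.541 and 1.53 ± 0.484 scaled TPM (SD, n = 3 each). TLR3 and TLR8 stayed below it. Of the 6 receptors of the IL-1 family that also use MYD88, IL1RAP alone passed and was not called (limma, adjusted p = 0.901). Of 7 tested cofactors and trafficking genes 1 was called, HSP90B1 (gp96), the chaperone that folds most Toll-like receptors. HSP90B1 was at 319, 307 and 303 scaled TPM under HA-TAZ and 248, 257 and 244 in the controls (limma, log2 fold change 0.31, SE 0.04, adjusted p = 0.0239). With TPM as deposited this was lost (limma, log2 fold change 0.0094, adjusted p = 0.930), as it was without any one of the 6 libraries (limma, adjusted p from 0.0536 to 0.0970). HSP90B1 was also not called without the intensity trend (limma, adjusted p = 0.0557). Neither tested gene among the other adaptors and IRAK kinases was called. TICAM1 (TRIF), the adaptor of the MYD88-independent route, was at 10.7 ± 0.759 and 7.61 ± 1.25 scaled TPM (SD, n = 3 each; limma, adjusted p = 0.0774). IRAK2 and IRAK3 stayed under 1 TPM.

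In the ubiquitin and TAK1 branch below TRAF6, 1 of 14 tested genes was called. PELI1, a ubiquitin ligase that acts on IRAK1, was at 39.7, 40.3 and 42.3 scaled TPM under HA-TAZ and 31.2, 31.6 and 32.5 in the controls (limma, log2 fold change 0.35, SE 0.05, adjusted p = 0.0205). PELI1 was not called with TPM as deposited (limma, log2 fold change 0.06, adjusted p = 0.579) or without HA-TAZ 1, 2 or 3, control a or control b (limma, adjusted p from 0.0574 to 0.0786). The list's median log2 fold change was 0.09, and −0.19 with TPM as deposited. In the IRF branch 1 of 6 was called, TANK, an adaptor of the kinases TBK1 and IKBKE. TANK was at 23.4, 23.9 and 22.5 scaled TPM against 19.3, 18.2 and 18.6 (limma, log2 fold change 0.30, SE 0.05, adjusted p = 0.0331), and at a log2 fold change of 0.01 with TPM as deposited (limma, adjusted p = 0.926). Without any one of the 6 libraries TANK was not called (limma, adjusted p from 0.0642 to 0.118), nor was it with scaling on protein-coding genes (limma, adjusted p = 0.0547). TANK was also not called without the intensity trend (limma, adjusted p = 0.0594). IRF7 was at 10.3 ± 0.816 and 6.28 ± 1.47 scaled TPM (SD, n = 3 each), without overlap, and was not called (limma, adjusted p = 0.0605).

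At the NF-kB end 2 of 7 tested genes were called, both higher. In scaled TPM the HA-TAZ libraries lay above all controls for 5 of the 7, against 20.2% of all tested genes. CHUK, IKBKB and NFKB1 did so in scaled TPM only and were not called. NFKBIZ, an NF-kB cofactor known to be induced by this pathway, was at 31.2, 32.9 and 31.2 scaled TPM under HA-TAZ and 15.4, 17.8 and 14.5 in the controls (limma, log2 fold change 0.96, SE 0.08, adjusted p = 0.00722). REL, an NF-kB subunit, was at 5.50, 5.56 and 5.10 against 3.59, 3.40 and 3.64 scaled TPM (limma, log2 fold change 0.49, SE 0.08, adjusted p = 0.0307). With TPM as deposited NFKBIZ was called and REL was not (limma, adjusted p = 0.0310 and 0.132). REL also lost its call without any one of the 6 libraries (limma, adjusted p from 0.0620 to 0.112). In both genes the HA-TAZ libraries lay above all controls on either scale. The list's median log2 fold change was 0.26, and −0.03 with TPM as deposited.

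The list of brakes, proteins that limit the signal, had 5 of 10 tested genes called, all higher, against 4.67% of all tested genes. The list's median log2 fold change was 0.60, or 0.30 with TPM as deposited. SOCS1, not called, passed the filter through its HA-TAZ libraries, with means of 1.43 TPM there and 0.680 TPM in the controls. Below the filter, TNIP3 was lower under HA-TAZ, at 0.197 ± 0.0385 against 0.458 ± 0.0632 scaled TPM (SD, n = 3 each). USP18, also below it, was higher, at 0.529 ± 0.0570 against 0.0411 ± 0.0169. Neither overlapped between the groups. TNFAIP3 (A20), a ubiquitin-editing enzyme, was at 43.6, 42.7 and 36.5 scaled TPM under HA-TAZ and 18.4, 19.2 and 18.4 in the controls (limma, log2 fold change 1.09, SE 0.08, adjusted p = 0.00480). NFKBIA, which holds NF-kB in the cytoplasm, was at 101, 95.6 and 90.8 against 62.03, 63.6 and 60.8 scaled TPM (limma, log2 fold change 0.61, SE 0.05, adjusted p = 0.00702). ATF3, a transcription factor that represses inflammatory genes, was at 27.997, 25.6 and 27.6 against 13.1, 15.6 and 14.3 scaled TPM (limma, log2 fold change 0.87, SE 0.08, adjusted p = 0.00899). TNFAIP3, NFKBIA and ATF3 are themselves transcribed in response to such signals, from Toll-like receptors and from others. CYLD, a deubiquitinase, had a log2 fold change of 0.58 and TNIP1, a partner of A20, of 0.38 (limma, SE 0.07 and 0.04, adjusted p = 0.0146 for each). With TPM as deposited TNFAIP3 and ATF3 were called (limma, adjusted p = 0.0241 and 0.0212). NFKBIA, CYLD and TNIP1 were not (limma, adjusted p = 0.0521, 0.0666 and 0.514). Without HA-TAZ 1 the call was lost for ATF3 (limma, adjusted p = 0.0541). Without HA-TAZ 1, 2 or 3 or control b it was lost for CYLD and TNIP1 (limma, adjusted p from 0.0531 to 0.0752).

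Of 12 target cytokines 3 passed the filter, and all 3 rose. CXCL10, a chemokine induced by interferon and NF-kB, was at 43.7, 39.4 and 37.9 scaled TPM under HA-TAZ and 2.80, 2.90 and 3.24 in the controls (limma, log2 fold change 3.38, SE 0.08, adjusted p = 0.000132). CCL3 was at 48.6, 44.0 and 47.9 against 9.25, 11.9 and 13.2 scaled TPM (limma, log2 fold change 1.96, SE 0.13, adjusted p = 0.00328). CCL5 was at 21.9, 22.97 and 21.2 against 10.1, 8.02 and 7.87 scaled TPM for each of 2 IDs with the same values (limma, log2 fold change 1.26, SE 0.10, adjusted p = 0.00657). CCL3 has near-identical copies in the genome, so its reads may be split. These 3 were called with TPM as deposited as well (limma, adjusted p = 0.000162, 0.00296 and 0.0285). The classical cytokines TNF, IL6, IL1B and CXCL8 were below the filter. Because the filter is on the mean over both groups, a low gene that is high in a single group passes more easily. CXCL10, CCL3 and CCL5 were above 1 TPM in every control library as well. Below the filter, CCL4 and IFNB1 were higher and IL12B lower under HA-TAZ without overlap, and the rest overlapped. The 3 of 3 thus does not stand for the 12 listed.

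**Figure D4:**
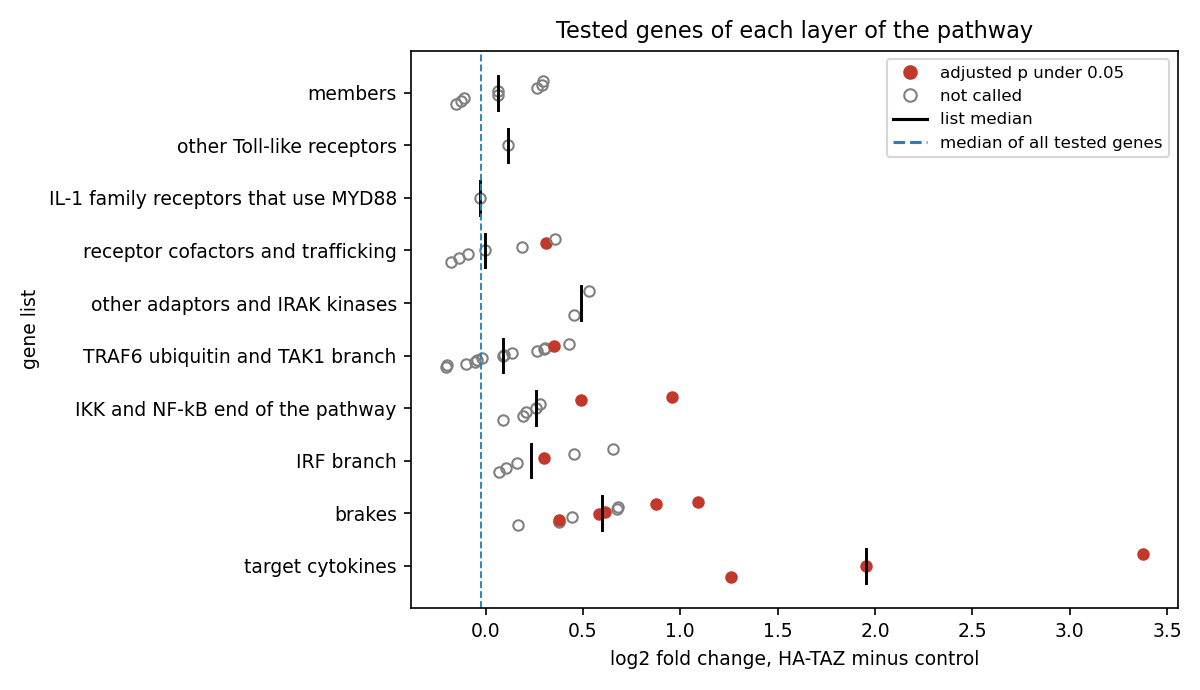
Log2 fold change (HA-TAZ minus control) of every tested gene in the 10 members and the 9 pathway lists, with called genes filled in red, list medians as black lines and the median of all tested genes as a dashed blue line. No member is filled, and the filled genes of the NF-kB end, the brakes and the target cytokines reach the highest values.

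The genes whose scaled log2 values over the 6 libraries were most like those of MYD88 were ADPRH, GLA and DMRTA1, with Pearson r of 0.999, 0.997 and 0.997. In all, 542 genes had an r above 0.95 with MYD88, which with 6 libraries in 2 groups is a loose criterion. For TLR6, the receptor with the highest mean over the 6 libraries, though not over the HA-TAZ libraries alone, they were ASIC3, TPR and MMS22L, with r of 0.991, 0.990 and 0.990, and 46 genes lay above 0.95. These correlations share libraries and scaling factors and are given as a description only.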

How the data were processed

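RNA of KMS27 cells was measured in 6 libraries, 3 per group. Kallisto 0.46.0, sleuth 0.30.0 and the build GRCh37 are named in the submitters' processing notes; the annotation release and the use of strand are not given in the sources used here. The authors deposited TPM per transcript, each library summing to 1000000, and a table of p-values and q-values with effects, standard errors and means on a natural log scale, which per the file headers is a Wald test by sleuth. All 6 value columns were used.

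TPM was summed per gene ID and divided by median-of-ratios factors over 21512 genes above 0 in all libraries with a mean of at least 1 TPM. A two-sided limma 3.58.1 test with an intensity trend (R 4.3.3) was run on log2(scaled TPM + 1) for genes whose mean TPM reached 1, and likewise for transcripts. Calls are at a Benjamini-Hochberg adjusted p under 0.05. The fit was tested on simulated data. Where a symbol had several IDs, the ID named so in GENCODE release 29 was counted, or, where that was listed at 0, the ID with the highest mean. Single values were compared with exact two-sided permutation tests (smallest p 0.1). Coordinates, sequences and 31-base words come from GENCODE release 29 (GRCh38), not the authors' build. Models were matched by transcript ID without its version. Exon assignments and lengths assume that a matched model has the same structure in both, which was not checked. Counting errors use the authors' estimated counts and cover counting error only. Python 3.11.15, numpy 2.4.6, pandas 2.3.3, scipy and matplotlib 3.10.9 were used.

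The genes and lists were chosen with earlier results of these data known. Named are the 10 genes, up to 4 called genes per list by adjusted p (ties kept), and the 3 genes most like MYD88 and TLR6; others named were chosen after their values were seen. Alternatives covered scaling, pseudocount, filter, trend and each library left out. One of them, scaling on all genes above 0, was chosen after seeing the data.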

Additional observations from a re-analysis of the deposited data

How the results depend on the processing

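No paired analysis was possible because the control columns carry a name found in no label, so their numbers could not be tied to numbered samples; the fit with a replicate block was therefore not run. The count of member genes called was 0 and became 1 (IRAK1) with only genes of at least 5 TPM tested and with scaling on all genes above 0; it stayed at 0 under the other alternatives run. The first of these adjusts over fewer genes; beyond that the cause was not tested. The count of list genes called was 13, and 8 with TPM as deposited (6 higher and 2 lower, LGMN and UNC93B1); leaving out 1 library gave 6 (HA-TAZ 1) to 10 (control c). Of all genes 1652 were called (1057 higher, 595 lower), and 3329 with TPM as deposited (261 higher, 3068 lower), 691 with no filter, 758 without the trend and 118 (without HA-TAZ 1) to 470 (without control c) with 1 library left out. The call was lost without single libraries for HSP90B1, PELI1, REL, TANK, ATF3, CYLD and TNIP1, and held in every fit for CXCL10, CCL3, CCL5, TNFAIP3 and NFKBIZ. Without the trend it was lost for HSP90B1 and TANK. Member transcripts called were 0 by limma and 3 by the q-values of the authors' deposited table; the cause was not tested. Directions turned for IRAK1 (−0.00051) and TLR1 (−0.18) with TPM as deposited, and for TRAF6 with TPM as deposited (−0.21), scaling on protein-coding genes (−0.0056) and with 1 library left out (−0.062 to 0.13, lowest without control c). None of these was called. With 1 library left out, the difference in main-transcript share changed sign for TRAF6 (−2.56 to 4.96 percentage points), TLR1 (−2.32 to 3.16), TLR7 (−6.57 to 7.26) and TLR10 (−6.23 to 12.2). With so few libraries the exact permutation test of these shares cannot reach the threshold. Depth limits TLR9 and TLR10, with under 40 estimated counts each.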
